A study of Bos taurus with 8 samples.

Results

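The dystrophin-glycoprotein complex was examined in 8 bovine preadipocyte clones through 8 genes picked by symbol, of which 7 had counts here (*DMD*, *UTRN*, *DAG1*, *SGCA*, *SGCB*, *SGCD* and *SGCE*) out of 18871 genes in all. The remaining gene, *DTNA*, was not analysed here. Each clone was grown from a single cell of the stromal vascular fraction (SVF), the cells left after fat tissue is digested and the adipocytes are removed. The IMF group held 4 clones from intramuscular fat dissected out of *longissimus dorsi* muscle, and the SF group held 4 clones from subcutaneous fat, all of adult male Angus-cross steers. Every clone had been kept for sequencing because it grew well, looked fibroblast-like and formed lipid droplets on induction. By the methods each library thus represents 1 selected clone and not the depot's cell mixture. Markers of several cell types were read in these libraries all the same, as given below. The study's methods have the clones collected before full confluence in growth medium, whereas the series description places adipogenic induction before sequencing, so their state at harvest is uncertain in both groups. By the methods each clone came from an individually prepared SVF sample of its depot, and which IMF and SF clones share a steer is not given, so the p-values measure the spread between clones and whatever animals they came from.

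In muscle fibres this complex ties the actin cytoskeleton to the basement membrane. Dystrophin, or its homologue utrophin, binds actin inside the cell and dystroglycan at the membrane, dystroglycan carries sugar chains that bind laminins outside, and the sarcoglycans brace the assembly from the side. Its loss weakens the fibre membrane and causes muscular dystrophies. Utrophin, dystroglycan and several sarcoglycans are also made outside muscle, whereas full-length dystrophin and alpha-sarcoglycan are typical of striated muscle.

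Counts per gene were compared between the 4 IMF and the 4 SF clones by edgeR's quasi-likelihood test. A gene was called when its Benjamini-Hochberg adjusted p was under 0.05 and its log2 fold change was at least 1 in size. Levels of 1 gene across clones are given as CPM, read counts brought to a common library size with TMM factors, and levels of different genes as TPM, which divides by the counted gene length. The clones had from 19654917 to 29308882 counts on named genes. At that depth 3 counts equal 0.0981 to 0.165 CPM, a floor that covers counting error only. Of the 10 preadipocyte markers listed for the study's cells, all had counts (1 called higher and 1 lower in IMF), though *CD34* had at most 2 in an SF clone and *DLK1* had 66, 0, 4 and 38 in the IMF clones and 6 to 22 in the SF clones.

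Among the 7 genes of the complex, 1 was called higher and 0 lower in the IMF clones. *SGCA* was the gene called. Over all 18339 genes tested, 4.78% were called higher and 4.04% lower. Beside the 0 lower calls, 4 of the 7 genes were lower at an unadjusted p under 0.05 in edgeR (17.8% of all genes), and DESeq2 and limma-voom also made 0 such calls. Without the fold-change limit, *SGCA* was higher, as were 14.4% of all genes, and *SGCB* and *SGCE* were lower, as were 11.4% of all genes. The IMF clones were all above the SF clones in 2 of the 7 genes (18.0% of all genes) and all below them in 3 of the 7 (14.1% of all genes). The median log2 fold change of the 7 genes was -0.44, against -0.03 over all genes tested.

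*SGCA* (chromosome 19, 36482941 to 36492533 in ARS-UCD2.0) encodes alpha-sarcoglycan, the sarcoglycan most closely tied to striated muscle. It had 94, 114, 87 and 67 counts in IMF1 to IMF4 and 12, 14, 34 and 5 counts in SF1 to SF4. All SF clones had reads of the gene, yet the highest of them, SF3, lay below the lowest IMF clone. The level averaged 3.84 ± 0.547 CPM over the IMF clones against 0.743 ± 0.463 CPM over the SF clones (SD, n = 4 each). This is a 5.07-fold higher level in IMF, a log2 fold change of 2.34 (95% interval 1.39 to 3.31, standard error 0.42, adjusted p = 0.00451). A test of whether the change exceeds 1 on the log2 scale, in place of 0, gave an adjusted p of 0.0578, the highest of 16 alternatives (lowest 2.26e-07). The annotation places *H1-9* over 1097 bases of the *SGCA* span, and reads there could have been shared.

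Skeletal muscle and endothelial markers moved with *SGCA*, whereas those of the other cell types listed did so in part or moved the other way. Over all genes tested, 4.78% were called higher and 4.04% lower. All 10 skeletal muscle markers tested were called higher in IMF, with a summed level of 526 to 719 TPM in the IMF clones and 0.562 to 15.0 TPM in the SF clones. Of these, *MYOD1*, *MYOG* and *CKM* had 0 counts in every SF clone, in which *SGCA* still had 5 to 34. All 7 endothelial markers were also called higher (38.7 to 44.3 TPM summed in IMF, 0.611 to 1.14 in SF, *KDR* at 0 in every SF clone). Of 6 smooth muscle markers, 1 was called higher and 4 lower (2112 to 2651 TPM in IMF, 3499 to 10621 in SF). Of 4 Schwann cell markers measured, 2 were called higher (11.1 to 13.6 TPM in IMF, 2.48 to 6.27 in SF). Of 5 leukocyte markers, 1 was called higher and 1 lower, and their summed levels overlapped between the groups (35.5 to 52.3 TPM in IMF, 48.2 to 93.5 in SF). The part of these cell types in the values of the complex was not tested. In bulk libraries, fewer cells of a type and less RNA per cell cannot be told apart. By the methods each library grew from a single cell, and how these markers came to be read in it was not tested.

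**Figure D1:**
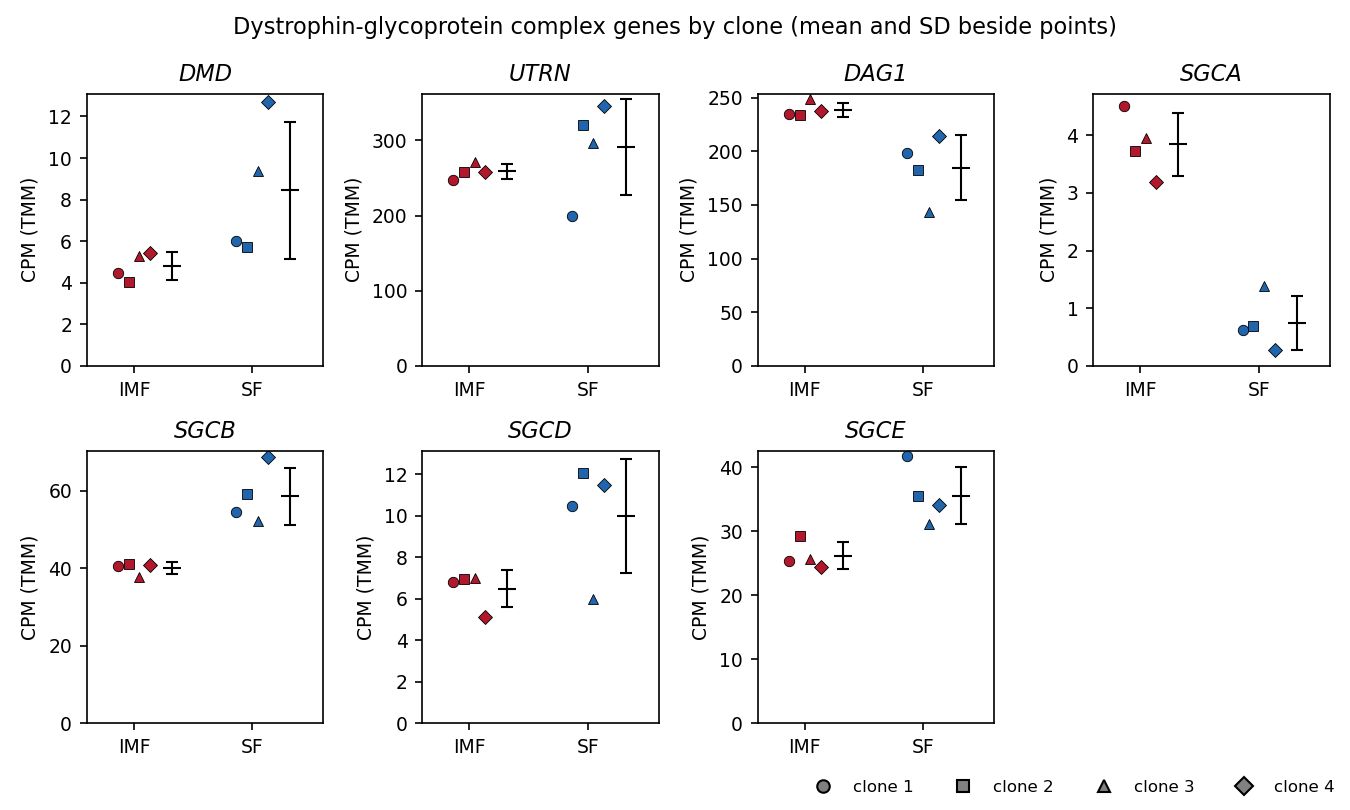
CPM (y axis, from 0, scaled by TMM) of each of the 7 genes in the 4 IMF and 4 SF clones, with marker shapes for clone numbers and the mean and SD beside the points. *SGCA* lay between 3.19 and 4.51 CPM in IMF and between 0.276 and 1.38 in SF, while the IMF clones lay below all SF clones for *DMD*, *SGCB* and *SGCE*.

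*DMD* (chromosome X, 110067847 to 112304761) encodes dystrophin, the actin-binding rod that gives the complex its name. Its counts were 93, 124, 117 and 114 in IMF1 to IMF4 and 117, 114, 231 and 230 in SF1 to SF4. Scaled for depth, these were 4.46, 4.06, 5.30 and 5.43 CPM in IMF and 6.01, 5.71, 9.37 and 12.7 CPM in SF. No IMF clone reached the lowest SF clone, and the SF clones fell into a lower pair, SF1 and SF2, and a higher pair, SF3 and SF4. The log2 fold change was -0.81 (standard error 0.27, 95% interval -1.43 to -0.20, adjusted p = 0.0573), so the gene passed neither threshold. Over 16 alternatives the log2 fold change ran from -0.96 to -0.55 and the adjusted p from 0.0224 (DESeq2) to 1, under 0.05 in 5 of them: DESeq2, the stricter filter, the clone number as a block, and without SF1 or SF2. Dystrophin was thus not among the genes higher in IMF, and the interval ends below 0. The gene has several promoters that give long and short proteins, and a count per gene does not separate them. Its span also holds 4055 bases annotated to *LOC521092*, and that of *SGCB* holds 3191 bases of the pseudogene *LOC107132568*, where reads could likewise have been shared.

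*UTRN* (chromosome 9, 81651654 to 82208337) encodes utrophin, which takes dystrophin's place at many non-muscle membranes and in immature muscle. Its levels were 247, 258, 271 and 258 CPM in the IMF clones and 199.8, 320.4, 296 and 346 CPM in the SF clones. The IMF clones lay close together, inside the range of the SF clones. The log2 fold change was -0.17 (95% interval -0.53 to 0.20, adjusted p = 0.487). When SF1, the lowest clone, was left out, the adjusted p was 0.0238 with a log2 fold change of -0.31, the lowest of 16 alternatives in both. The others had log2 fold changes up to -0.016 (total counts alone, adjusted p = 0.955) and adjusted p up to 1.

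Utrophin and dystrophin have gene models of similar length, 14692 and 14414 bases, so their counts can be set against each other within a clone. The full length was used for *DMD*, which would understate its level per length where short transcripts were read. Utrophin reads per length were 54.0, 62.2, 49.9 and 46.5 times those of dystrophin in IMF1 to IMF4. In SF1 to SF4 the ratio was 32.5, 54.9, 30.9 and 26.7. *UTRN* was the more abundant transcript in all 8 clones, and SF2 alone lay within the IMF range. On the log2 scale the mean ratio was 5.72 ± 0.18 in IMF and 5.12 ± 0.45 in SF (SD, n = 4 each), a difference of 0.60 that did not pass a two-sided exact permutation test (p = 0.114, where the smallest possible p is 0.0286). With any other clone left out the difference was 0.47 to 0.66 (exact permutation p from 0.114 to 0.171). Leaving out SF2, the clone that overlaps, separates the groups by construction (difference 0.82).

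*DAG1* (chromosome 22, 50614127 to 50662793) encodes the precursor of alpha- and beta-dystroglycan, the laminin receptor at the centre of the complex. The IMF clones had 235, 234, 249 and 237 CPM, and the SF clones had 199, 183, 143 and 214 CPM. The lowest IMF clone exceeded the highest SF clone, by a margin that was narrow against SF4 and wide against SF3. The log2 fold change was 0.37 (standard error 0.12, 95% interval 0.09 to 0.65, adjusted p = 0.0577), short of both thresholds. Over 16 alternatives the adjusted p ran from 0.0117 (total counts alone) to 1 and was under 0.05 in 3: total counts alone, DESeq2 and without SF4.

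The beta, delta and epsilon sarcoglycans were lower on average in IMF, opposite in sign to alpha. *SGCB* (chromosome 6, 67878832 to 67905909), whose product forms the core on which the other sarcoglycans assemble, had 40.6, 41.0, 37.6 and 40.8 CPM in the IMF clones and 54.5, 59.2, 52.1 and 68.7 CPM in the SF clones. The groups did not overlap, and the log2 fold change was -0.55 (standard error 0.09, adjusted p = 0.0037), a 1.46-fold higher level in SF. *SGCE* (chromosome 4, 11992413 to 12063687), the widely expressed relative of alpha-sarcoglycan, had 25.3, 29.3, 25.7 and 24.4 CPM in IMF and 41.7, 35.4, 31.1 and 34.1 CPM in SF. Its groups were also separate, with a log2 fold change of -0.44 (adjusted p = 0.0159, standard error 0.10), or 1.36-fold higher in SF. Neither gene reached the fold-change limit. Scaled by total counts alone, *SGCE* had an adjusted p of 0.108 and a log2 fold change of -0.29 (adjusted p from 0.00117 to 1 over 16 alternatives).

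*SGCD* (chromosome 7, 66907503 to 68024851) encodes delta-sarcoglycan, which pairs with the beta subunit. It had 6.81, 6.97, 6.98 and 5.14 CPM in the IMF clones and 10.5, 12.1, 6.01 and 11.5 CPM in the SF clones. SF3 lay among the IMF clones, whereas the other SF clones lay above them all. The log2 fold change was -0.62 (95% interval -1.14 to -0.11, adjusted p = 0.0752). Without SF3 it was -0.84 with an adjusted p of 0.00412 (adjusted p from 0.00412 to 1 over 16 alternatives). The span of *SGCD* overlaps with *LOC104969236* over 565 bases and with *LOC616281* over 1026 bases, the latter a separate gene of 78 to 192 counts per clone with a log2 fold change of 0.45.

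**Figure D2:**
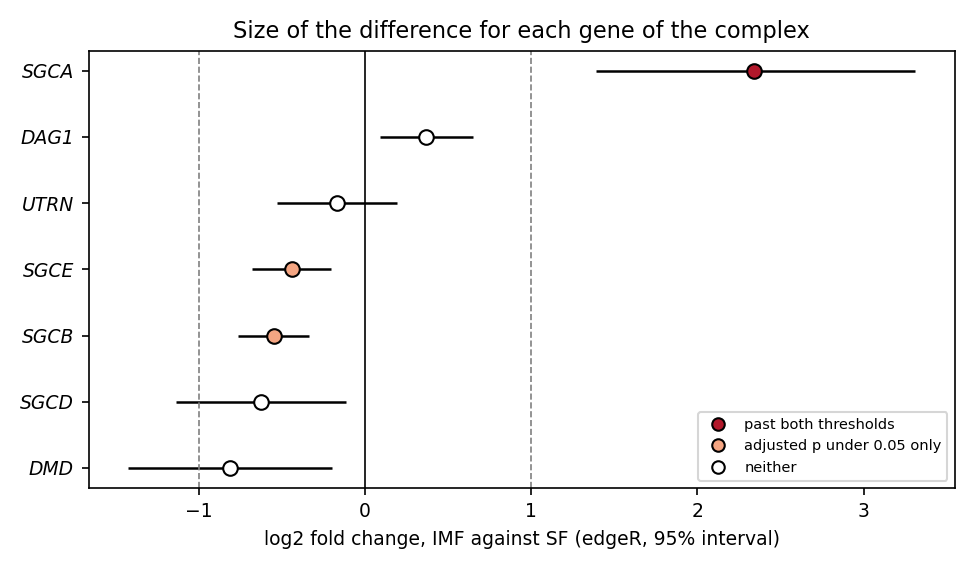
Log2 fold change between IMF and SF clones (x axis) of the 7 genes of the complex (y axis), with 95% intervals from the edgeR fit and dashed lines at -1 and 1. *SGCA* at 2.34 stands to the right with an interval above 1, *DAG1* at 0.37 has a positive value, and the other genes lie between -0.81 and -0.17.

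The ratio of alpha- to epsilon-sarcoglycan transcripts was taken within each clone, where scaling between libraries plays no part. Per length, *SGCA* reads were 0.232, 0.166, 0.2 and 0.17 times the *SGCE* reads in IMF1 to IMF4. In SF1 to SF4 they were 0.0199, 0.0265, 0.0584 and 0.0115 times the *SGCE* reads. Epsilon exceeded alpha in all 8 clones, and the lowest IMF ratio was above the highest SF ratio. The mean log2 ratio was -2.39 ± 0.23 in IMF and -5.36 ± 0.97 in SF (SD, n = 4 each). The difference of 2.96, or 7.79-fold, had a two-sided exact permutation p of 0.0286, the smallest that 4 against 4 allow. That p follows by construction, since every IMF clone lay above all SF clones in *SGCA* and below them in *SGCE*. It adds no support beyond the separation of these genes. Without IMF1 the difference was 2.87 with an exact permutation p of 0.0571, although the groups stayed separate. The log2 fold changes of the genes themselves were 2.34 for *SGCA* and -0.44 for *SGCE*.

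**Figure D3:**
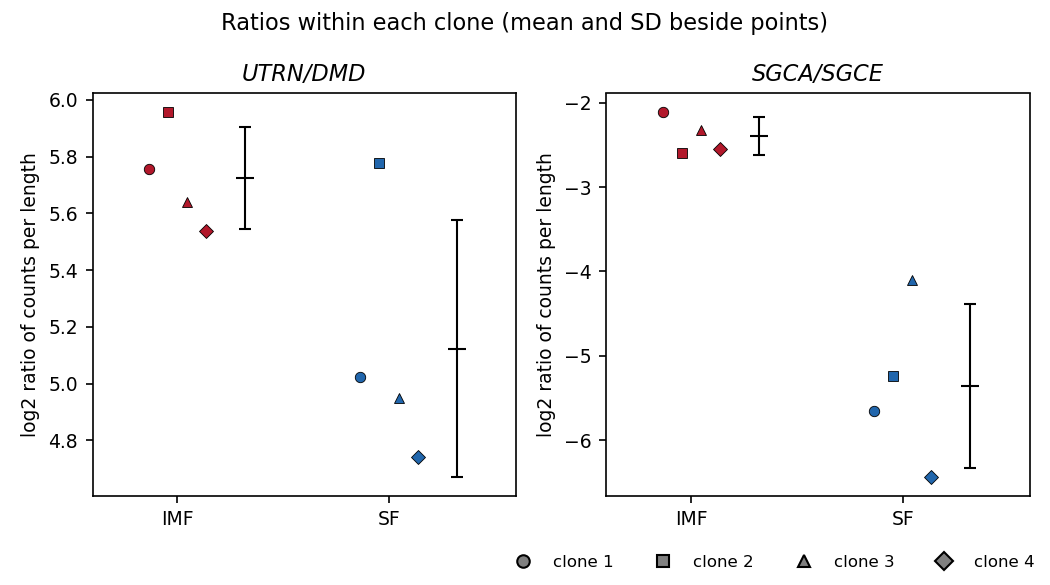
Log2 ratio of counts per length within each clone (y axis) for *UTRN* over *DMD* and for *SGCA* over *SGCE*, by group, with mean and SD beside the points. For *UTRN* over *DMD*, SF2 at 5.78 lies among the IMF clones, and for *SGCA* over *SGCE* the IMF clones (-2.59 to -2.11) lie apart from the SF clones (-6.44 to -4.10).

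Compared per length, dystroglycan was the most abundant transcript of the complex and dystrophin or alpha-sarcoglycan the least. The place of *DMD* depends on its counted length, which would be too long for any short transcripts. In the IMF clones the order by mean was *DAG1* (65.5 TPM), *UTRN* (29.4), *SGCE* (21.1), *SGCB* (15.3), *SGCA* (4.04), *SGCD* (2.39) and *DMD* (0.558 TPM). No 2 neighbours in that order overlapped over the 4 clones. In the SF clones the order was *DAG1* (49.7 TPM), *UTRN* (32.5), *SGCE* (28.3), *SGCB* (22.1), *SGCD* (3.61), *DMD* (0.946) and *SGCA* (0.789 TPM). There, *UTRN* overlapped with *SGCE*, *SGCE* with *SGCB*, and *DMD* with *SGCA*, so these neighbours are not ordered beyond their spread, although *SGCE* exceeded *SGCB* within each of the 4 clones. *SGCA* moved from percentile 44.8 of the genes tested in IMF to 22.4 in SF. *DAG1* lay at percentiles 92.5 and 90.4, and *DMD* at 18.4 and 24.5.

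**Figure D4:**
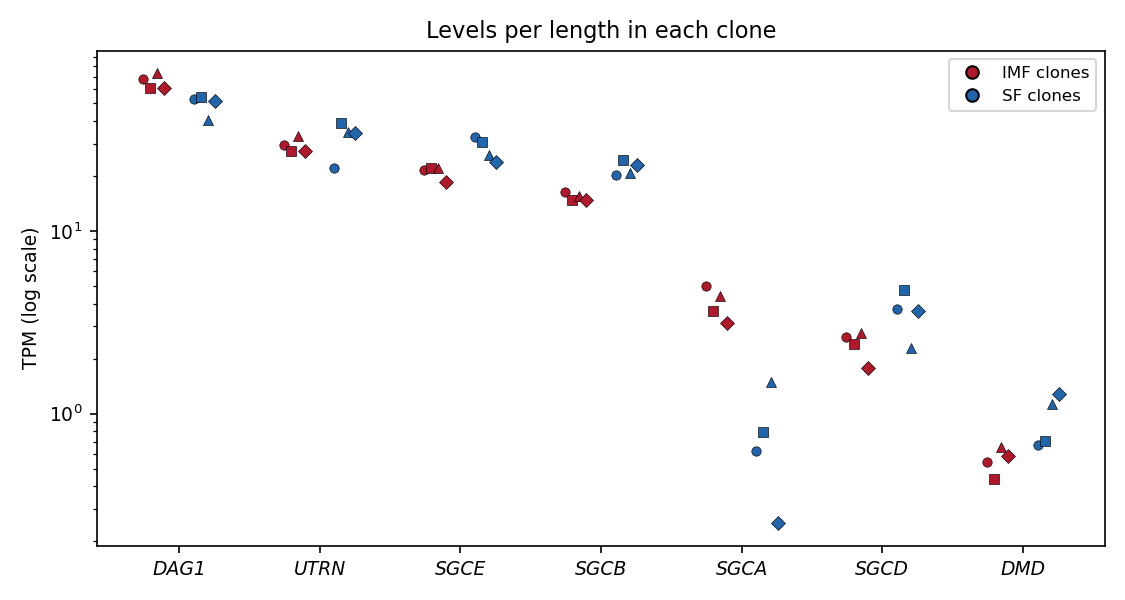
TPM on a log axis (y) of the 7 genes, ordered by mean in IMF, in each IMF (red) and SF (blue) clone. *DAG1* is highest in both groups (49.7 and 65.5 TPM on average), *DMD* stays near 1 TPM or below (0.441 to 1.28), and *SGCA* is the gene whose place in the order differs most.

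The IMF clones resembled each other more closely than the SF clones did. The coefficient of variation of CPM ran from 2.84% (*DAG1*) to 14.2% (*SGCA*) among the IMF clones, and from 12.5% (*SGCE*) to 62.3% (*SGCA*) among the SF clones. It was larger in SF for 7 of 7 genes, as for 65.1% of all genes with a value in both groups. SF4 had the highest SF level in CPM of *DMD*, *UTRN*, *DAG1* and *SGCB*, and the lowest of *SGCA*. That clone also had the lowest TMM factor, 0.863, against 0.951 to 1.00 in the other SF clones and 1.02 to 1.09 in IMF. In TPM, which does not use that factor, SF2 was highest among the SF clones for *UTRN* (39.2), *DAG1* (53.9) and *SGCB* (24.5), while SF4 kept the highest *DMD* value (1.28). Scaling by total counts alone moved the median over all genes, on the log2 scale, from -0.03 to 0.12 and left the sign of all 7 genes as it was (from -0.64 for *DMD* to 2.47 for *SGCA*).

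Partners of the complex were taken from lists of 57 genes, of which 50 had counts and were tested. Of these, 7 were called higher and 1 lower in IMF (4.78% and 4.04% of all genes), with a median log2 fold change of -0.0023. Among the remaining structural parts, no list member was called. Sarcospan, the membrane protein that sits with the sarcoglycans, was lower in IMF (*SSPN*, 22.6 ± 1.96 against 39.9 ± 5.90 CPM, SD, n = 4 each, log2 fold change -0.82, adjusted p = 0.00167), with separate groups. *DRP2*, a dystrophin-related gene, had 4 to 42 counts per clone, all even numbers (adjusted p = 0.631). Of 3 syntrophin and dystrobrevin genes tested, the adaptors that bind dystrophin's tail, 0 passed an adjusted p of 0.05. *SNTB2* had 169 to 232 counts in IMF and 151 to 233 in SF (log2 fold change -0.12, adjusted p = 0.473), with a positive value of 0.025 when scaled by total counts alone. *SNTB1* had 109 counts in IMF2 and 683 to 962 in the other IMF clones (adjusted p = 0.711).

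Of 8 cytoplasmic and membrane partners, 2 were called higher and 0 lower (4.78% and 4.04% of all genes). Caveolin-3, the muscle caveolin that binds beta-dystroglycan, had 138 to 278 counts in IMF and 0 in every SF clone (*CAV3*, at least 55.1-fold higher against a floor of 3 counts per clone, adjusted p = 6.33e-05). *ANK3*, which encodes an ankyrin that anchors dystrophin and dystroglycan, had 360 to 459 counts in IMF and 0, 28, 23 and 30 in SF (log2 fold change 4.07, adjusted p = 0.00225). Over 16 alternatives its log2 fold change ran from 3.67 (without SF1) to 5.05 (limma-voom). The cytolinker plectin was lower without reaching the fold-change limit (*PLEC*, 978 against 1609 CPM, log2 fold change -0.72, adjusted p = 0.00209). *KRT19*, a keratin listed with these partners, had a log2 fold change of 0.07 (adjusted p = 0.906) whose sign depended on the setting.

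The matrix ligands of dystroglycan held 4 of the 8 calls among the partners. Of 13 genes tested, 3 were called higher and 1 lower (4.78% and 4.04% of all genes). Laminin alpha 2, the muscle chain that dystroglycan binds, had 712, 930, 819 and 635 counts in IMF and 314, 60, 182 and 235 in SF (*LAMA2*, log2 fold change 1.74, adjusted p = 0.0176, standard error 0.42). That call was lost without IMF3 (adjusted p = 0.0523) or without SF3 (0.0522), over a range of 0.000621 to 0.329. *LAMA5* reached 286 ± 18.9 CPM among the IMF clones against 34.9 ± 29.9 CPM among the SF clones (SD, n = 4 each, log2 fold change 3.03, adjusted p = 0.004). SF1 had 1535 of the gene's counts and the other SF clones 315 to 510, and without SF1 the log2 fold change was 3.82. *LAMA1* had 6 to 20 counts in IMF and none in SF, a level at least 4.49-fold higher (adjusted p = 0.009, but 0.101 with the clone number as a block). *LAMA3*, an epithelial-type chain, was lower, at 12.7 against 47.3 CPM (log2 fold change -1.89, adjusted p = 0.00108). The laminin chains beta 1 and gamma 1 moved in opposite directions without a call, *LAMB1* by -0.92 (adjusted p = 0.034) and *LAMC1*, named after its values were seen, by 0.92 (adjusted p = 0.0118) on the log2 scale. *LAMB1* passed both thresholds without SF2 (-1.03) or without SF3 (-1.11), and had an adjusted p over 0.05 when any 1 IMF clone was left out. *HSPG2*, which encodes the ligand perlecan, had 26637 to 104807 counts in SF, the most in SF1, and a log2 fold change of -0.32 (adjusted p = 0.594) that turned to 0.21 without SF1.

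**Figure D5:**
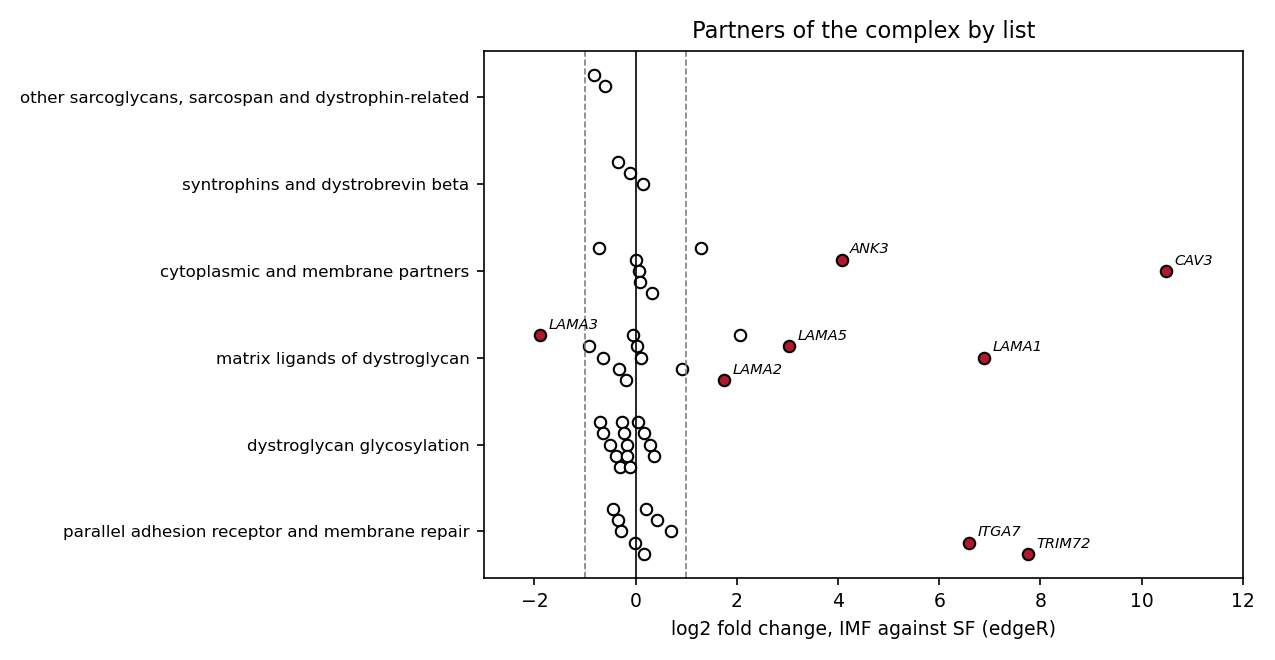
Log2 fold change between IMF and SF clones (x axis) of 50 partner genes in 6 lists (y axis), with filled points and names for the 8 genes past both thresholds and dashed lines at -1 and 1. The points of *CAV3*, *LAMA1* and *TRIM72* depend on edgeR's prior count, since every SF clone had at most 2 counts of them.

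Dystroglycan binds laminin only after enzymes of the Golgi and endoplasmic reticulum have built its sugar chain. Of 14 such genes tested, 0 were called higher and 0 lower (4.78% and 4.04% of all genes). At an adjusted p under 0.05 without the fold-change limit, 4 of the 14 genes were lower (11.4% of all genes) and 0 higher (14.4% of all genes). The 4 genes were named after their values were seen. *POMT1* (19.0 against 25.0 CPM, log2 fold change -0.40, adjusted p = 0.0140) and *POMT2* (12.1 against 18.9 CPM, log2 fold change -0.65, adjusted p = 0.0021) encode the enzymes that together add the first mannose. *POMGNT1* had a log2 fold change of -0.26 (adjusted p = 0.0241). *B4GAT1*, which primes the chain for extension, stood at 8.05 ± 0.259 CPM in IMF against 11.4 ± 0.421 CPM in SF (SD, n = 4 each, log2 fold change -0.51, adjusted p = 0.00293). Over the whole list, the IMF clones lay below all SF clones in 6 of 14 genes (14.1% of all genes) and above them in 1 (18.0% of all genes). *GMPPB* (-0.18, adjusted p = 0.0538) and *B3GALNT2* (0.36, adjusted p = 0.0567) did not pass.

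Muscle cells also hold laminin through an integrin and reseal torn membrane with repair proteins. Of 10 such genes tested, 2 were called higher and 0 lower (4.78% and 4.04% of all genes). In the same fit, *ITGA7*, the integrin alpha chain that pairs with beta 1 in muscle, had 5423 to 8137 counts in IMF and 1, 3, 58 and 158 in SF (log2 fold change 6.59, adjusted p = 0.00328, standard error 1.10). Without SF4, the SF clone with the most reads, the log2 fold change was 8.20, while limma-voom gave 8.49 and the replicate block 7.49. *TRIM72*, a muscle protein of membrane repair, was at least 80.6-fold higher, with 183 to 395 counts in IMF and at most 2 in an SF clone. *AHNAK* (log2 fold change -0.29, adjusted p = 0.0662) and *ANXA2* (0.42, adjusted p = 0.0579), the genes of this list with the highest CPM, were not called. The partner genes called higher, like *SGCA*, moved with the skeletal muscle and endothelial markers given above. The part of those cell types was not tested here either. The 0 lower calls of this list stood beside 2 genes lower at an adjusted p under 0.05 (11.4% of all genes). These were *ITGB1* and *MYOF*, named after their values were seen. At the same limit 2 genes of the list were higher (14.4% of all genes).

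Among 9150 named genes with at least 10 CPM in either group, the 5 most like *DMD* over the 8 clones were *ARHGAP21* (Pearson's r = 0.967 of log2 CPM), *PPP2R5B* (0.959), *CCND1* (0.950), *MICALL1* (0.943) and *SFT2D2* (0.940). Of the same genes, 25 had r above 0.9. The points share depot and library scaling, so these values are a description. The genes of the complex were left out of that comparison. Within groups, after the group means were removed, r over the 8 clones ran from -0.91 (*DAG1* with *SGCA*) to 0.81 (*DAG1* with *SGCD*) across the 21 pairs of genes of the complex. It was -0.85 for *SGCA* with *SGCB* and 0.55 for *DMD* with *UTRN*. The coefficient of variation was larger in SF for all 7 genes (*DAG1* 16.5% against 2.84% in IMF). These within-group values therefore rest more on the SF clones than on the IMF clones. With the group means kept in, *DAG1* and *SGCA* had r = 0.49. The *SGCA* values rest on 5 to 34 counts per SF clone.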

How the data were processed

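RNA of 8 clones, 4 IMF and 4 SF, was sequenced in paired-end reads. Reads were trimmed with Trimmomatic 0.39 and counted per gene with featureCounts 2.0.2 by the authors, who deposited raw counts without normalization, and the gene length. For the alignment to ARS-UCD2.0 the methods name HISAT2 and the submitters' processing notes name STAR 2.7.11a. The methods call the libraries non-stranded, whereas the labels describe a dUTP protocol, so reads of overlapping genes could have been shared. The file also holds the authors' group means and DESeq2 results (fold changes, p-values and calls), which were not used. The row without a gene name (0.0148% to 0.0209% of counts) was left out.

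The 18339 genes whose counts summed to 20 or more were tested with edgeR 4.0.16 (TMM, quasi-likelihood, two-sided, Benjamini-Hochberg over all genes) in R 4.3.3. Intervals came from the same fit. DESeq2 1.42.0 and limma 3.58.1 (voom) were alternatives, and the tests were tried on simulated data. Ratios used 0.5 added counts and an exact permutation test over clones. Log2 CPM for correlations used a prior count of 2. Every pair of clones within a group differed by more than sampling noise. Genes and lists were chosen with earlier results of these data known. Named were all genes of the complex with counts, and per partner list up to 5 called genes by fold change and 2 others by level. Coordinates come from the RefSeq gene table of ARS-UCD2.0. Some partner genes are not reported here, and the lists were counted without them. *DTNA*, and with it its ratio to *DTNB*, was not analysed here. Python 3.11.15 drew the figures with matplotlib 3.10.9.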

Additional observations from a re-analysis of the deposited data

Results flagged for a closer look

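In the check of 18 groups of 4 clones, 2 held a clone far from the other 3, and chance flags about 1 group in 20. *SGCB* in IMF3 stood at 37.6 CPM while the other IMF clones lay between 40.6 and 41.0 CPM, a gap of 0.898 of the group's range, and IMF3 was still below every SF clone. *SGCD* in IMF4 stood at 5.14 CPM while the other IMF clones lay between 6.81 and 6.98 CPM, a gap of 0.908 of the range. Without IMF4 the log2 fold change of *SGCD* was -0.53, with an adjusted p of 0.164 in edgeR (from 0.00412 to 1 over 16 alternatives).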

How the results depend on the processing

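When changes were tested against 1 in place of 0 on the log2 scale, 0 genes of the complex were called higher. In all other alternatives run (DESeq2, limma-voom, RLE factors, total counts, no filter, at least 10 counts in at least 4 clones, the replicate block and each clone left out), 1 gene of the complex was called higher and 0 lower, and no gene of the complex changed sign. With the replicate block, *SGCA* had a log2 fold change of 2.50 and 6 partners were called higher. Partners called lower were 1 to 2 with 1 clone left out (2 without SF2 or SF3, where *LAMB1* passed). Deviations of same-numbered clones correlated between -0.0093 and 0.139 over 4 pairs (mean 0.055). Over 12 pairs of different number they correlated between -0.105 and 0.109 (mean -0.018). Whether same-numbered clones share a steer is not given. The log2 *SGCA* to *SGCE* difference was 2.96 with the replicate block (exact sign-flip p = 0.125, the smallest that 4 pairs allow) and 2.60 to 3.38 with 1 clone left out. Without IMF1 it was 2.87 (exact permutation p = 0.0571). The log2 *UTRN* to *DMD* difference was 0.47 to 0.82 with 1 clone left out. *KRT19* changed sign with limma-voom (-0.028), with the replicate block (-0.043) and in part of the range from -0.39 to 0.22 with 1 clone left out. *SNTB2* changed sign with total counts alone (0.025). *HSPG2* ranged from -0.56 to 0.21 with 1 clone left out. The alternatives for named partners were added after the data were seen. Depth limits *SGCA* in SF (5 to 34 counts) and *DRP2* and *LAMA1* in all clones. The *DTNA* to *DTNB* ratio was not run.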

Other observations

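All 8 counts were even numbers for *DRP2*, *NOS1* and *CAPN3*, which is 3 of the 50 partner genes tested, against 0 of the 7 genes of the complex and 8.60% of all genes tested. How both mates of a pair and reads with several matches were counted is not given in the sources used here. Whether each of these counts stands for 1 fragment was not tested. *NOS1*, the neuronal nitric oxide synthase that dystrophin anchors through a syntrophin, had 2 to 22 counts in IMF and 2 to 8 in SF (adjusted p = 0.348 in edgeR). *CAPN3*, a muscle calpain, had 30 to 64 counts in IMF and 24 to 62 in SF (adjusted p = 0.978). IMF2, the most deeply sequenced clone, had the lowest IMF count of *SNTB1* (109) and of *EGFLAM* (56, against 179 to 425 in the other IMF clones), a dystroglycan ligand. *SLIT2*, a further dystroglycan ligand, had 219 to 318 counts in IMF and 0, 0, 35 and 163 in SF, so that the groups were separate although the adjusted p was 0.244.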
